A study of Mus musculus with 16 samples.

Results

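The comparison described here is the response of primary MEKK1+/+ mammary fibroblasts to conditioned medium (CM), growth medium harvested from cultures of MDA-MB231, a human breast cancer cell line. Its members are the 4 MEKK1+/+ control arrays and the 4 MEKK1+/+ treated arrays, chosen by their titles, 8 of the 16 arrays of the series. The fibroblasts came from the inguinal mammary glands of female 129S6 mice aged 8 to 10 weeks that carried intact MEKK1 (gene symbol MAP3K1), and were grown in DMEM with 10% FBS. Control cultures received that medium and treated cultures CM, each for 8 h, before total RNA was hybridised to Illumina Mouse 8 arrays. The other 8 arrays hold MEKK1-/- cells under the same 2 conditions. They share in the normalization between arrays and in the fit's estimate of the spread, and serve to compare the response between genotypes. The fibroblasts were taken from 3 mice per genotype and the mouse behind each culture is not named, so the p-values measure the spread between cultures.

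Fibroblasts are the main stromal cells of the mammary gland. They make and remodel the collagenous matrix around the ducts, and under tissue damage or near a tumour they can take either a contractile, TGF-beta-driven form or an inflammatory form that secretes cytokines, chemokines and proteases. Many genes of the inflammatory form are targets of NF-kB, dimers of REL-family proteins that bind kappaB sites, while contractile genes are commonly driven by SRF (serum response factor), which binds CArG boxes together with myocardin-related coactivators.

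The arrays measured 18132 genes. After quantile normalization, a level on these arrays is a log2 intensity, and a gene was called above background on an array when it exceeded the 99th percentile of the olfactory receptor genes there. By this measure 7324 genes were above background on all 8 arrays and 8591 on none. Fibroblast markers were present, 13 of 15 above background on all 8 arrays. Of 19 macrophage markers, 13 were also above background on all 8, although ITGAM, PTPRC, FCER1G and MSR1 were at background on all of them. Of 16 epithelial, 12 endothelial, 11 adipocyte and 11 lymphocyte markers, 3, 2, 2 and 0 were above background on all 8. The median intensity as deposited was 166.6, 152.4, 153.7 and 114.3 on control arrays 1 to 4 and 113.8 to 121.5 on the 4 treated arrays. MAP3K1 itself was between 7.51 and 7.95 in control and 7.42 and 8.18 in treated MEKK1+/+ cells, against 7.79 to 8.41 on the MEKK1-/- arrays. Where its probe lies relative to the deleted part is not given, so its level does not check the genotype labels.

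Of the 18132 genes, 909 (5.01%) passed an adjusted p of 0.05 between CM and control (limma, Benjamini-Hochberg over all genes). The rises numbered 411 (2.27%) and the falls 498 (2.75%), so 45.2% of calls were higher. That split depended on the scaling: with the values as deposited, on which the median log2 change of all genes was -0.284, 32 genes were called higher and 763 lower, 4.0% higher. The directions below are relative to the distribution of all genes on an array. Among the 7959 genes above background on every array of a group, 863 (10.8%) were called, 385 higher (4.84%) and 478 lower (6.01%). The list shares below are set against all genes, a lower base than this one. Most changes were modest, with a median of 0.53 for the rises and -0.51 for the falls on the log2 scale. Of the larger changes, 39 rises and 30 falls reached a log2 change of 1, and 5 rises and 0 falls reached 2.

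**Figure D1:**
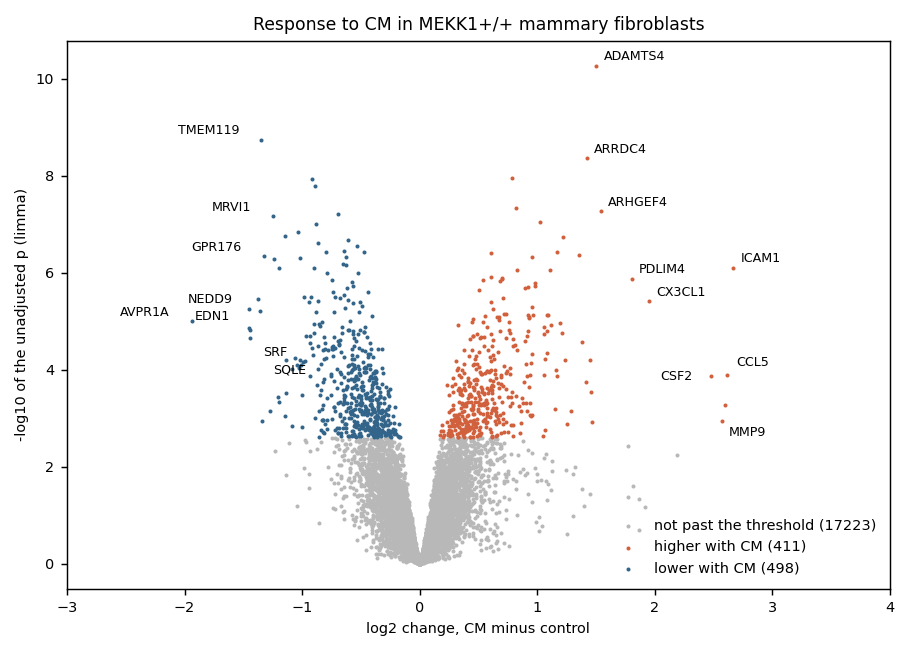
The log2 change between CM and control (x axis) against the unadjusted p of limma on a -log10 scale (y axis), 1 point for each of 18132 genes. The 411 genes called higher reach further from 0 than the 498 called lower, ICAM1 at 2.67 against AVPR1A at -1.93.

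The arrays of the groups did not overlap for 1758 genes (9.7%), 830 of them called. The 10 largest rises among the called genes without overlap were ICAM1, CCL5, MMP9, CSF2, CX3CL1, PDLIM4, ARHGEF4, ADAMTS4, GCH1 and RAB15. They encode products for leukocyte attachment, attraction and growth, for matrix degradation, for the cytoskeleton and its regulation by small GTPases, and for the synthesis of tetrahydrobiopterin. The 10 largest falls were AVPR1A, EDN1, NEDD9, FHL2, NUAK1, FZD2, TNFRSF12A, TMEM119, IGFBP5 and GPR176, which include receptors and proteins of adhesion and the actin cytoskeleton. Of the rises, 8 of 10 passed under all 21 alternative settings of the processing, MMP9 and CSF2 being the others, and of the falls 9 of 10 did, IGFBP5 being the other. In MEKK1-/- cells all 10 rises were also higher with CM, by 1.38 to 3.55 on the log2 scale. All 10 falls were lower there, with changes of -2.16 to -1.23. The change in these cells was not used to choose the genes, although their arrays entered the normalization and the spread. Over all genes the response differed between genotypes at an adjusted p of 0.05 for 0 genes by limma, with 473 at an unadjusted p of 0.05, which does not show that the responses are equal.

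**Figure D2:**
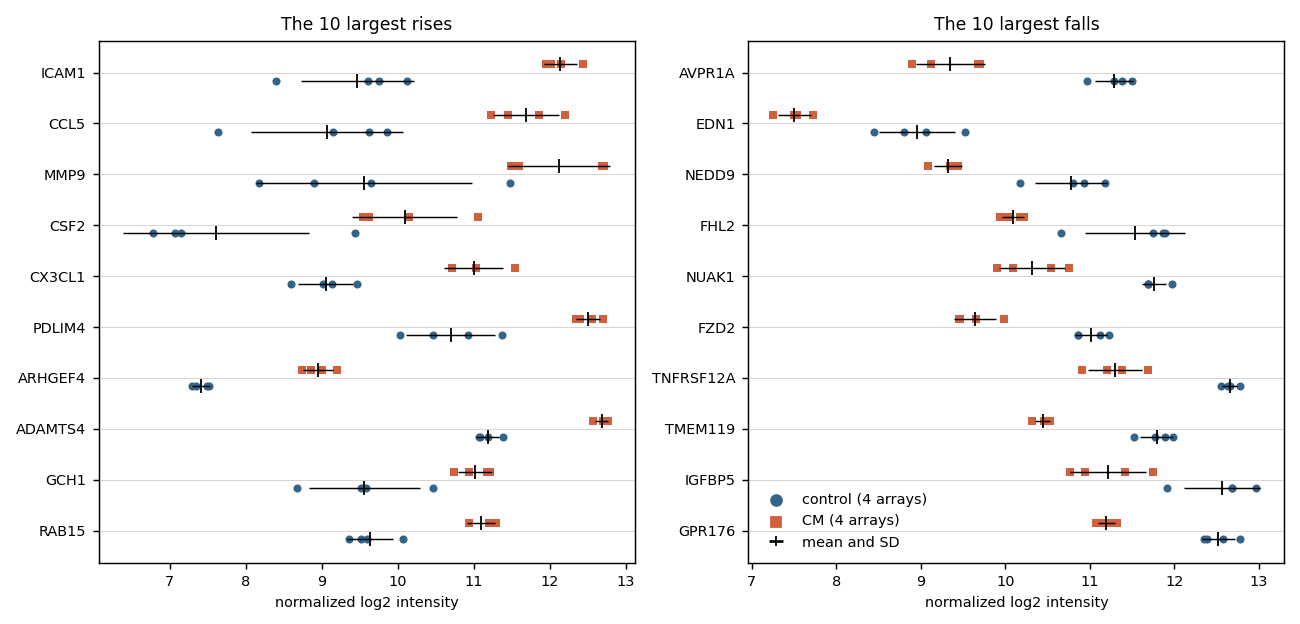
Normalized log2 intensity (x axis) of the 10 largest rises and 10 largest falls, 1 circle per control array and 1 square per CM array, with a tick and bar for the mean and SD of 4. No gene shown has overlapping groups, and the control arrays of ICAM1, CCL5, MMP9, CSF2 and GCH1 spread more widely than those of ARHGEF4 and ADAMTS4.

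Molecules that tether leukocytes held the largest rise. Of 18 leukocyte adhesion genes, 4 were called higher (22.2%, against 2.27% of all genes) and 0 lower. ICAM1, the endothelial and stromal ligand of leukocyte beta2 integrins, read 9.61, 8.40, 9.76 and 10.13 on the control arrays and 12.01, 12.15, 12.44 and 11.95 with CM. The lowest treated array was far above the highest control array. The rise was 6.35-fold, a log2 change of 2.67 ± 0.33 (SE, limma adjusted p = 0.000434). Its exact permutation p of 0.0286 is the smallest that 4 against 4 allows. Every gene chosen for groups without overlap has this value, so it adds no support. CX3CL1, a membrane-bound chemokine that also acts as an adhesion molecule, read 8.59, 9.13, 9.01 and 9.47 in control and 11.55, 10.72, 11.03 and 10.71 with CM, a 3.86-fold rise (log2 1.95 ± 0.28, adjusted p = 0.00107). F11R, the junctional adhesion molecule JAM-A, rose by 0.62. SELE, E-selectin, passed at 0.32 but was at background on all 8 arrays. VCAM1, the other main adhesion ligand of activated stroma, was high throughout, 11.46 to 12.86 in control and 12.59 to 13.53 with CM, and its change of 0.74 did not pass (adjusted p = 0.474).

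Of 36 chemokine genes, secreted signals for leukocytes, 4 were called higher (11.1%, against 2.27% of all genes) and 0 lower. CCL5, which draws T cells and monocytes and is the chemokine at the centre of the study, read 9.15, 7.64, 9.63 and 9.86 in control and 11.45, 11.23, 11.87 and 12.20 with CM. All treated arrays were above all control arrays (6.14-fold, log2 2.62 ± 0.51, adjusted p = 0.00812). CCL17, a ligand of CCR4, rose by 1.15. CCL19, a ligand of CCR7, was at background in all controls and above it on all treated arrays, at least 1.14-fold higher.

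Of 26 genes for IL-6 family cytokines, their receptors and colony-stimulating factors, 3 rose (11.5%, against 2.27% of all genes) and 0 fell. The median change over the list was 0.16, against -0.0018 over all genes. CSF2, the granulocyte-macrophage colony-stimulating factor, read 7.16, 6.79, 7.07 and 9.44 in control and 10.15, 9.55, 9.62 and 11.05 with CM. Control array 4 stood apart from the other controls, which were at background, and lay just under the lowest treated array. The change was 2.48 ± 0.49 (adjusted p = 0.00839). JAK2, the kinase that CSF2 and many other cytokine receptors signal through, rose from 9.34 ± 0.13 to 10.40 ± 0.31 (SD, n = 4), a log2 change of 1.07. TSLP, an epithelial and stromal cytokine acting on dendritic cells, went from background on all control arrays to above it on all treated arrays, at least 1.41-fold higher, though without control array 2 its adjusted p was 0.0514.

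The receptors for such signals moved in both directions. CD40, the TNF-family receptor engaged by activated T cells, rose from 7.64, 7.38, 7.64 and 8.75 to 9.28, 8.92, 8.83 and 9.33, with control array 4 close to the treated range (log2 1.24, adjusted p = 0.00537). TNFRSF12A, the receptor of TWEAK, fell from 12.63, 12.55, 12.66 and 12.77 to 11.69, 11.21, 10.91 and 11.38, with a wide gap between the groups (log2 -1.35 ± 0.20, adjusted p = 0.00149). TNFRSF1A, the main receptor for TNF, fell by 0.61 on the log2 scale. IRAK2, a kinase of Toll-like and IL-1 receptor signalling, fell from 10.39 ± 0.11 to 9.19 ± 0.32 (SD, n = 4; log2 -1.20, adjusted p = 0.000434), the opposite direction to IL18 on the same list of 28, which rose by 0.46.

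Of 21 NF-kB subunits and feedback regulators, 15 had a positive change and the list median was 0.33. Yet 2 were called (9.52%, against 2.27% of all genes called higher), NFKB2 and IKBKE. NFKB2, the p100 precursor of the alternative pathway, read 8.36, 7.96, 8.37 and 8.80 in control and 9.37, 9.60, 9.16 and 9.08 with CM, without overlap (log2 0.93 ± 0.19, adjusted p = 0.0113). IKBKE, an IkappaB kinase-related kinase, rose by 0.51. The subunit RELA, at 11.98 in control and 11.87 with CM, and NFKB1, at 10.22 and 10.56, did not pass (adjusted p = 0.711 and 0.533). The feedback inhibitors NFKBIA (1.08), NFKBIZ (1.32) and TNIP1 (1.08) did not pass, with adjusted p-values of 0.293, 0.12 and 0.0816. With the replicate number fitted as a block, an alternative setting, their adjusted p-values were 0.044, 0.0621 and 0.00213 (limma). Without control array 2 their changes were 0.56, 0.88 and 0.73, against 0.79 for NFKB2. These genes, and others below so marked, were chosen after their values were seen.

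Promoters of 5 changed genes are shown because they hold the kappaB or CArG letters that the background above refers to, in the RefSeq windows of GRCm38.p6, which run from 250 bases before to 50 after each start. Only bases upstream of the start are printed, 5' to 3' on the gene's strand, with the motif in capitals. NFKB2 (chr19:46304637-46304736, plus strand), IER3 (chr17:35821603-35821672, plus strand) and GCH1 (chr14:47189414-47189513, minus strand) rose, and their capitals mark kappaB matches. SRF (chr17:46556193-46556262, minus strand) and FHL2 (chr1:43196802-43196871, minus strand) fell, and their capitals mark CArG boxes.
NFKB2: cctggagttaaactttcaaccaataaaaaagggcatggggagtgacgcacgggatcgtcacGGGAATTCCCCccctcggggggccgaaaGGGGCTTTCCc
IER3: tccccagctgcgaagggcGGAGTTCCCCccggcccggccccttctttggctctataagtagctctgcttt
GCH1: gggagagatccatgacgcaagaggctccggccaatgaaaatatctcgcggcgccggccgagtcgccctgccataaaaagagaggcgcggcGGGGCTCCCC
SRF: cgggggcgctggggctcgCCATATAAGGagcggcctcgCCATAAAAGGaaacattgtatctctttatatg
FHL2: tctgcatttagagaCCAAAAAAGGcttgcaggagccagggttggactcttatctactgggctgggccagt

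Over all windows of a gene, searched on both strands, a kappaB match occurred in 15.9% of the 314 genes called higher that have a window, 11.8% of 391 called lower and 11% of all 13613. Among the 32 rises of log2 1 or more with a window, 8 held a match (25%), and among the 10 largest rises 3 of 7. Of the 26 falls of that size 3 held a match (11.5%), and among the 10 largest falls 2 of 8. Genes above background and not called held a match in 12.4%. The AP-1 letters TGACTCA were in 6.37% of genes called higher, 3.58% of those called lower and 5.44% of all. The interferon-stimulated response element was matched in 4.46%, 2.81% and 3.99%, and the CArG box in 2.55%, 2.3% and 1.67%. At log2 1 or more a CArG box was in 2 of 32 rises (6.25%) and 1 of 26 falls (3.85%), too few to compare. These shares describe letters in a window and are not binding sites.

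Several well-known inflammatory genes had large changes that did not pass, and their control arrays ranged widely. IL6 read 10.79, 8.29, 9.66 and 11.69 in control and 11.97, 10.72, 12.31 and 11.22 with CM (log2 1.45, adjusted p = 0.25). SAA3, an acute-phase apolipoprotein, read 13.32, 8.11, 13.97 and 15.07 in control and 14.39, 13.80, 14.79 and 14.94 with CM (1.86, adjusted p = 0.592). In both genes the groups overlapped, control array 2 was the lowest and control array 4 lay within or above the treated range. Without control array 2 the change of IL6 was 0.84 and that of SAA3 0.36. IL1B (1.87), LCN2 (2.19), C3 (1.82) and CXCL1 (1.92) were likewise lowest on control array 2 and, among controls, highest on array 4, with adjusted p-values of 0.285, 0.0836, 0.201 and 0.349, and without control array 2 their changes were 1.0, 1.62, 1.04 and 0.71. With the replicate number fitted as a block, IL1B, LCN2 and C3 passed (adjusted p = 0.0271, 0.00391 and 0.0465), and IL6, SAA3 and CXCL1 did not (0.0966, 0.341 and 0.187). These 6 genes were chosen after their values were seen. The summed intensity of the 19 macrophage markers was 50189, 16494, 41701 and 29625 on control arrays 1 to 4 and 43119, 14063, 40943 and 30904 on treated arrays 1 to 4, so the arrays numbered 2 were lowest in both groups. None of the 19 was called, and the part of these cells in the results above was not tested. With both arrays numbered 2 left out, an alternative chosen after seeing the data, 428 genes were called, 378 of them among the 909. ICAM1 (2.3, adjusted p = 0.00241), CCL5 (2.29, 0.0308) and CSF2 (2.38, 0.039) still passed. That setting ended 62 of the 115 calls counted at the end of this section, MMP9, NFKB2, TSLP, SQLE and WNT5A among them.

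**Figure D3:**
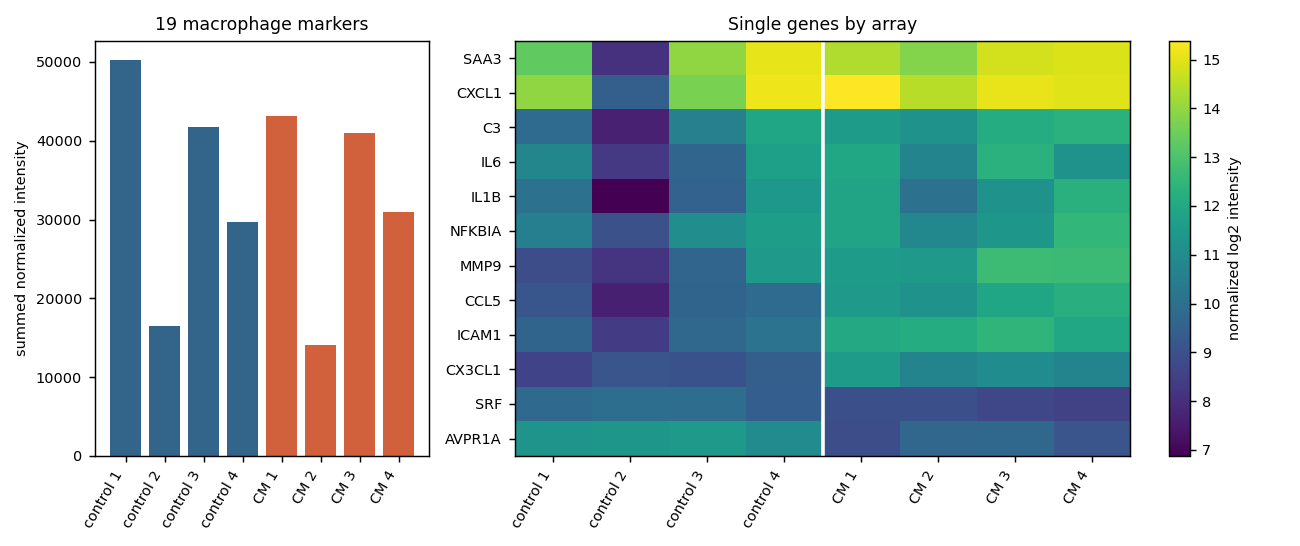
Left, summed normalized intensity of the 19 macrophage markers on each MEKK1+/+ array (bars from 0). Right, normalized log2 intensity of 12 genes by array, colour scale at the right: SAA3, CXCL1, IL6 and IL1B are darkest on control 2, while ICAM1, CX3CL1, SRF and AVPR1A change at the line between groups.

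Among other defence genes the calls were few. Of 34 acute-phase, complement and innate defence genes 1 rose (2.94%, against 2.27% of all genes). That gene, NOS2, the inducible nitric oxide synthase, went from 7.11 ± 0.19 to 8.04 ± 0.52 (SD, n = 4, log2 0.94, adjusted p = 0.0184). Only 2 of its control arrays were above background. GCH1, which makes the tetrahydrobiopterin that nitric oxide synthases need, read 9.52, 8.67, 9.59 and 10.46 in control and 11.18, 10.75, 10.94 and 11.22 with CM, the groups just separate (log2 1.46 ± 0.31, adjusted p = 0.0132). Of 43 interferon-stimulated genes 1 rose, a share of 2.33% against 2.27% of all genes. It was GBP5, a guanylate-binding protein (1.26, with overlapping groups and only 1 control array above background). Of 18 genes of class I antigen presentation 1 rose, H2-M3 (0.61), a share of 5.56% against 2.27% of all genes, and 15 had a positive change.

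Of 23 prostaglandin genes 3 rose (13%, against 2.27% of all genes) and 0 fell. PTGES, the inducible synthase of prostaglandin E2, read 8.86, 8.11, 8.93 and 10.14 in control and 10.21, 10.03, 10.45 and 11.21 with CM. Control array 4 fell inside the treated range (log2 1.47 ± 0.37, adjusted p = 0.0317). PTGIS, prostacyclin synthase, rose by 0.65 and PTGIR, the prostacyclin receptor, by 0.87. PTGS2, the inducible cyclooxygenase, was at or near background, at 7.18 in control and 7.64 with CM, and did not pass (adjusted p = 0.25). Without control array 2, the adjusted p of PTGES was 0.0996 and that of PTGIR 0.105, and with only the 8 MEKK1+/+ arrays fitted 0 of the 23 genes passed.

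Proteases and their inhibitors changed in a few members. MMP9, the gelatinase B that cleaves basement membrane collagen, read 8.89, 8.18, 9.65 and 11.48 in control and 11.60, 11.50, 12.72 and 12.69 with CM. The highest control and lowest treated arrays nearly touched (5.95-fold, log2 2.57 ± 0.64, adjusted p = 0.0309), and the call passed in 3 of the 8 settings that left out an array, with an adjusted p of 0.1 without control array 2. TIMP3, the matrix-bound inhibitor of metalloproteinases, fell from 12.82 ± 0.20 to 11.92 ± 0.28 (SD, n = 4; log2 -0.90, adjusted p = 0.0026). MMP3 (1.31, adjusted p = 0.435) and MMP13 (1.00, 0.146), chosen after their values were seen, did not pass. With the replicate number fitted as a block, an alternative setting, both passed (adjusted p = 0.00211 and 0.00695). Of 25 metalloproteinases and TIMPs 1 was called in each direction (8% called, against 5.01% of all genes).

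ADAMTS4, an aggrecanase that cuts aggrecan and versican, had the smallest adjusted p of the rises named here: it read 11.07, 11.18, 11.08 and 11.39 in control and 12.77, 12.71, 12.71 and 12.57 with CM. The SDs were 0.15 and 0.09, the change 1.50 ± 0.09 (2.84-fold) and the adjusted p 9.81e-07. It was the only one of 17 ADAM and ADAMTS genes called (5.88%, against 5.01% of all genes). SERPINB2, the plasminogen activator inhibitor PAI-2, read 7.32, 6.70, 7.10 and 8.83 in control and 9.83, 8.75, 11.19 and 10.59 with CM. Its highest control array was above the lowest treated array (log2 2.60 ± 0.59, adjusted p = 0.019, and 0.067 without control array 2). Only 2 of its control arrays were above background. S100A10, a cell-surface binder of plasminogen, rose by 0.63, and F2R, the thrombin receptor PAR1, fell by 0.68 on the log2 scale.

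The structural matrix itself changed little. Of 27 collagen chains 1 was called higher (3.7%, against 2.27% of all genes). That gene, COL18A1, the source of endostatin, rose from 9.62 ± 0.37 to 10.45 ± 0.19 (SD, n = 4, log2 0.83, adjusted p = 0.00401). COL1A1, chosen after its values were seen, was at 14.34 in control and 14.35 with CM. Of 20 genes for collagen processing and crosslinking 0 were called by limma (against 5.01% of all genes), with 3 at an unadjusted p of 0.05. The most abundant, LOX and P4HB, differed by -0.15 and -0.02. Of 36 matrix glycoproteins and proteoglycans 2 rose (5.56%, against 2.27% of all genes), HSPG2 (perlecan, 0.61) and VCAN (versican, 0.26, near background). VCAN turned to -0.02 with the values as deposited. In the 8 settings that left out an array, HSPG2 passed in 0 and VCAN in 1.

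Contractile genes moved the other way. Of 30 contractile and smooth muscle genes 4 were called lower (13.3%, against 2.75% of all genes) and 0 higher, 26 had a negative change, and the median was -0.21. SRF read 9.78, 9.96, 9.93 and 9.41 in control and 8.97, 8.96, 8.68 and 8.51 with CM, without overlap (log2 -0.99 ± 0.18, adjusted p = 0.00573). MYLK, the myosin light chain kinase, fell from 11.19, 10.68, 11.03 and 10.13 to 9.86, 9.62, 9.34 and 9.44 (log2 -1.19, adjusted p = 0.0183), and LMOD1, the smooth muscle leiomodin, from 8.67 ± 0.38 to 7.53 ± 0.30 (log2 -1.14, SD, n = 4). PDLIM7, a PDZ-LIM protein of actin bundles, fell by 0.42 on the log2 scale. The most abundant members stayed close to their control levels: ACTA2, smooth muscle actin, at 14.68 and 14.47, TPM1 at 14.66 and 14.38, and TAGLN at 11.44 and 11.24, none past the threshold (adjusted p = 0.265, 0.348 and 0.692; chosen after their values were seen).

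Single genes outside that list moved in both directions. FHL2, a LIM-domain cofactor whose promoter is shown above, read 11.87, 11.89, 11.74 and 10.66 in control and 10.22, 9.94, 10.17 and 10.04 with CM, control array 4 alone coming near the treated arrays (log2 -1.45 ± 0.23, adjusted p = 0.00246). TGFB1I1, the focal adhesion protein Hic-5, fell from 11.64 ± 0.13 to 10.74 ± 0.13 (SD, n = 4; log2 -0.90), MICAL2, an actin monooxygenase, by 0.87 and MRVI1, a cGMP kinase substrate of smooth muscle, by 1.25 on the log2 scale. These last 3 were chosen after their values were seen. PDLIM4, another PDZ-LIM protein of stress fibres, went against them, from 10.47, 10.03, 10.92 and 11.37 to 12.56, 12.40, 12.70 and 12.35 (3.5-fold higher, log2 1.81 ± 0.23, adjusted p = 0.000586). ARHGEF4, an exchange factor for small GTPases, likewise rose, from 7.29, 7.50, 7.52 and 7.35 to treated arrays between 8.74 and 9.20, with tight groups far apart (log2 1.54 ± 0.15, adjusted p = 0.000123).

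**Figure D4:**
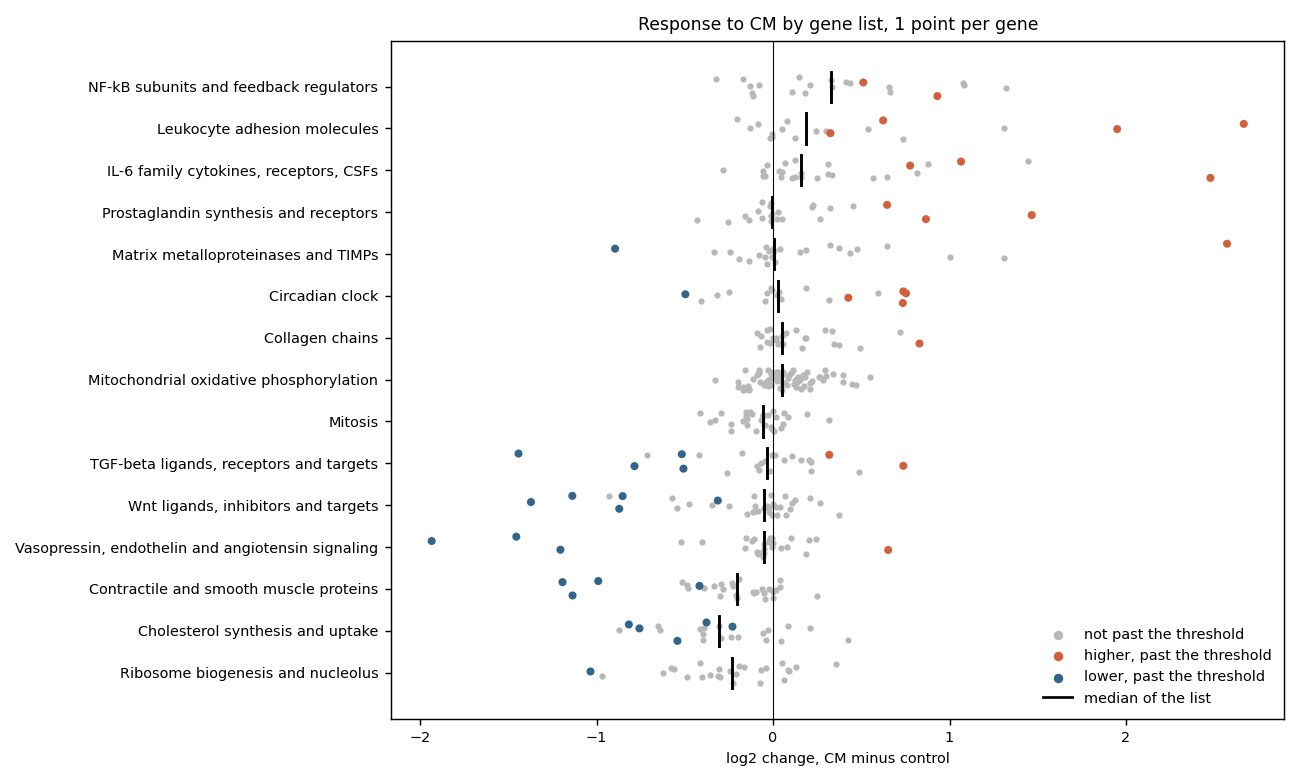
The log2 change of each gene (x axis, CM minus control) in 15 gene lists, 1 point per gene, coloured where past the threshold, with a bar at the list's median. Adhesion molecules and NF-kB regulators lie mostly to the right of 0, contractile, cholesterol and ribosome biogenesis genes mostly to the left, and the collagen, oxidative phosphorylation and mitosis lists cluster near 0.

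Adhesion to matrix changed in single members. Of 30 integrin and focal adhesion genes 2 fell and 1 rose (10% called, against 5.01% of all genes). NEDD9, a scaffold of focal adhesion signalling and migration, fell from 11.18, 10.80, 10.93 and 10.18 to 9.08, 9.34, 9.44 and 9.42, without overlap (log2 -1.45 ± 0.21, adjusted p = 0.00137). ILK, the integrin-linked kinase, fell by 0.37 on the log2 scale and ITGA7, a laminin-binding integrin chain, rose by 0.63.

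Of 24 TGF-beta signalling genes 4 fell and 2 rose (25% called, against 5.01% of all genes). NUAK1, a kinase that TGF-beta induces, read 11.69, 11.69, 11.69 and 11.97 in control and 10.53, 9.90, 10.09 and 10.75 with CM (log2 -1.44 ± 0.24, adjusted p = 0.00288). Its groups were more than their own range apart. PMEPA1, a target and inhibitor of the pathway, fell by 0.79, the receptor TGFBR2 by 0.52 and the signal transducer SMAD2 by 0.51 on the log2 scale. The list median was -0.03, so the falls did not extend to the whole list. The 2 that rose were BHLHB2 (0.74), a transcriptional repressor also of the clock and hypoxia lists, and TGIF1 (0.32), a SMAD corepressor, which turned to -0.07 with the values as deposited. Of 29 genes of the BMP pathway, ID4, a dominant-negative helix-loop-helix protein, fell by 0.85 on the log2 scale, while the receptor ACVRL1 (0.51) and the ligand BMP6 (0.45), both near background in control, rose.

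Wnt genes were called in the lower direction alone, 5 of 35 (14.3%, against 2.75% of all genes). FZD2, a Wnt receptor, read 10.85, 11.12, 11.22 and 10.86 in control and 9.46, 9.98, 9.66 and 9.46 with CM, well separated (log2 -1.37 ± 0.19, adjusted p = 0.00104). Its ligand WNT5A fell from 9.41 ± 0.28 to 8.54 ± 0.12 (SD, n = 4; log2 -0.87, adjusted p = 0.0107). The matricellular Wnt targets WISP2 and WISP1 fell by 1.14 and 0.85 on the log2 scale, and FZD8, whose treated arrays were all at background, by 0.31. The list median was -0.05 over all 35 and -0.35 over the 15 members above background. SMO, the Hedgehog signal transducer, fell by 0.47 on the log2 scale, and NOTCH3, a receptor of mural cells and fibroblasts, rose by 0.85. These were the 2 calls among 24 Notch and Hedgehog genes (8.33%, against 5.01% of all genes).

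Vasoactive peptide signalling held the largest fall. AVPR1A, the V1a receptor of vasopressin, read 11.29, 11.38, 11.49 and 10.97 in control and 8.89, 9.68, 9.71 and 9.12 with CM. The groups were over 1 log2 unit apart at their closest (3.82-fold lower, log2 -1.93 ± 0.30, adjusted p = 0.00192). EDN1, the vasoconstrictor endothelin-1, fell from 9.06, 8.80, 9.52 and 8.45 to 7.50, 7.54, 7.25 and 7.72, down to near background (log2 -1.45 ± 0.23, adjusted p = 0.00226), while its receptor EDNRA rose by 0.65. NPR3, the clearance receptor of natriuretic peptides, fell by 1.20 on the log2 scale. In all, 3 of 29 genes on this list fell and 1 rose (13.8% called, against 5.01% of all genes). GPR176, an orphan receptor outside it, fell from 12.52 ± 0.20 to 11.19 ± 0.10 (SD, n = 4; log2 -1.33, adjusted p = 0.000317), and TMEM119, a membrane protein of osteoblasts and microglia, from 11.53, 11.77, 11.89 and 11.98 to 10.52, 10.46, 10.32 and 10.48 (log2 -1.35 ± 0.11, adjusted p = 1.66e-05).

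Growth factor receptors were split. Of 38 genes for FGF, HGF, VEGF and PDGF factors and receptors, PDGFRA, a defining fibroblast receptor, rose from 11.46, 11.32, 11.54 and 11.53 to 11.77, 12.62, 12.94 and 12.33, every treated array above every control array (log2 0.95 ± 0.23, adjusted p = 0.0256, and 0.0765 without control array 2). EGFR rose by 0.61 and the decoy receptor FGFRL1 by 0.53, whereas ANGPT2, an antagonist of TIE2, and the co-receptor NRP1 fell by 0.83 and 0.59 on the log2 scale. FGFR1 was at 8.12 in control and 7.88 with CM (adjusted p = 0.273). IGFBP5, the most changed of 15 IGF axis genes, fell from 11.91, 12.96, 12.69 and 12.68 to 10.76, 10.95, 11.41 and 11.75, control array 1 just above the treated range (log2 -1.34 ± 0.33, adjusted p = 0.0307, and 0.0964 without control array 2). The receptor IGF1R fell by 0.64 on the log2 scale.

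Cholesterol synthesis had the lowest median change of the 43 lists. Of its 23 genes of synthesis and uptake, 19 had a negative change, the median was -0.30, and 5 were called lower (21.7%, against 2.75% of all genes) and 0 higher. SQLE, squalene epoxidase, read 10.97, 11.12, 11.07 and 10.49 in control and 9.92, 9.88, 10.34 and 10.24 with CM, the groups separate (log2 -0.82 ± 0.16, adjusted p = 0.00891). CYP51, lanosterol demethylase, fell from 10.13 ± 0.30 to 9.37 ± 0.24 (SD, n = 4; log2 -0.76, adjusted p = 0.0147), the sterol dehydrogenase NSDHL by 0.38 and farnesyl diphosphate synthase FDPS by 0.54 on the log2 scale. Of the neighbouring enzymes, LSS (-0.87), HSD17B7 (-0.64) and SC4MOL (-0.65), chosen after their values were seen, missed the threshold with adjusted p-values of 0.0695, 0.0823 and 0.278. Under every alternative the list's median stayed below that of all genes, by 0.25 to 0.45 outside the z-score settings, but the number called ran from 0 to 9.

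Of 20 fatty acid synthesis genes, the desaturases FADS3 and SCD2 fell, FADS3 from 10.72 ± 0.18 to 9.75 ± 0.18 (SD, n = 4; log2 -0.97, adjusted p = 0.00281) and SCD2 by 0.69 on the log2 scale. ACSL4, which activates arachidonic acid, rose by 0.38. The summed intensity of the 11 adipocyte markers was 11029 to 15724 in control and 7476 to 12734 with CM, with ADIPOQ, FABP4 and LEP at background on all 8 arrays, and their part in the lipid results was not tested. LPL, lipoprotein lipase, made up most of that sum and read 13.10 to 13.73 in control and 12.16 to 13.30 with CM (log2 -0.67) and was not called, while PNPLA2, a triglyceride lipase and the only one called, rose by 0.63. MLXIPL, near background, was called at 0.18 and turned to -0.11 with the values as deposited.

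A pair of arrestin-domain genes linked to glucose sensing rose. TXNIP, the thioredoxin-interacting protein that limits glucose uptake, read 10.80, 11.24, 11.33 and 11.98 in control and 12.69, 12.53, 12.33 and 13.32 with CM (log2 1.38 ± 0.23, adjusted p = 0.00318). ARRDC4, its paralogue, read 10.71, 11.02, 11.01 and 11.21 in control and 12.34, 12.32, 12.58 and 12.39 with CM, more than 1 log2 unit clear of control (log2 1.42 ± 0.12, adjusted p = 2.64e-05). Both passed under all 21 alternatives, and ARRDC3, a further paralogue, did not pass (0.44, adjusted p = 0.182, and 0.0114 with the replicate number as a block). These 3 genes were chosen after their values were seen. Of 20 glycolysis genes ENO2, the neuronal enolase, was the only call (5%, against 5.01% of all genes). It rose from 8.54, 8.86, 9.02 and 9.08 to 10.26, 10.37, 9.73 and 10.04 (2.33-fold, log2 1.22 ± 0.13, adjusted p = 0.000223). Of the 20 genes 14 had a negative change.

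Of 20 hypoxia response genes 4 rose (20%, against 2.27% of all genes). DDIT4, an inhibitor of mTORC1, rose by 0.75, BHLHB2 by 0.74, MXI1, a MYC antagonist, by 0.54 and ARNT, the partner of HIF1A, by 0.49. None of these 4 passed with the values as deposited, and the list median was 0.02. Of 18 circadian clock genes 5 were called (27.8%, against 5.01% of all genes): PER1 rose from 8.77 ± 0.18 to 9.52 ± 0.18 (SD, n = 4; log2 0.75, adjusted p = 0.0152), NR1D1, the nuclear receptor REV-ERB alpha, from 7.94 ± 0.28 to 8.68 ± 0.30 (0.74, adjusted p = 0.012), BHLHB2 by 0.74 and CRY2 by 0.43. PER2 went the other way, from 8.13, 8.09, 8.24 and 7.91 to 7.68, 7.38, 7.84 and 7.47, without overlap (log2 -0.50 ± 0.10, adjusted p = 0.0115). With the values as deposited PER1, NR1D1, BHLHB2 and CRY2 did not pass. Cultures were sampled at 1 time after exposure.

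Few genes of ribosome production and protein folding were called. Of 26 ribosome biogenesis and nucleolar genes, 20 had a negative change with a median of -0.23, and 1 was called (3.85%, against 5.01% of all genes): PES1, a factor of large-subunit assembly, which read 9.19, 9.17, 9.06 and 8.77 in control and 8.14, 7.98, 8.04 and 7.88 with CM, far below control (log2 -1.04 ± 0.11, adjusted p = 0.000201). NOL5A (-0.97, adjusted p = 0.0558) and GNL3 (-0.63, 0.0592), chosen after their values were seen, just missed. With the replicate number fitted as a block both passed (adjusted p = 0.00124 and 0.00233). The cytosolic chaperones HSPA8 and HSP105 fell, HSPA8 from 9.63, 9.62, 9.76 and 9.48 to 9.03, 8.22, 8.42 and 7.72 (log2 -1.27 ± 0.30, adjusted p = 0.0226) and HSP105 by 0.86 on the log2 scale (also chosen after their values were seen). Of 20 genes of the unfolded protein response 1 was called (5%, against 5.01% of all genes), DNAJC3, an inhibitor of PERK, which fell by 0.66 on the log2 scale. NUPR1, a stress-induced chromatin protein, rose by 0.58, the only call among 25 ATF4 targets (4%, against 5.01% of all genes).

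Redox, metal and survival genes gave small numbers of calls in both directions. BLVRB, biliverdin reductase B, rose from 11.61, 11.23, 11.48 and 11.87 to 12.65, 12.68, 12.57 and 12.74, with tight treated arrays (log2 1.11 ± 0.14, adjusted p = 0.000438). NFE2L2, which encodes NRF2, was at least 1.09-fold higher than its background-level controls, and PGD of the pentose phosphate pathway fell by 0.34 on the log2 scale. These were the 3 calls among 24 NRF2 genes (12.5%, against 5.01% of all genes). Zinc transport moved in opposite senses: the importer SLC39A10 rose from 7.39 ± 0.16 to 8.15 ± 0.24 (SD, n = 4; log2 0.76, adjusted p = 0.00246) and the exporter SLC30A1 fell from 8.28 ± 0.19 to 7.54 ± 0.19 (log2 -0.73, adjusted p = 0.00365). Among 28 death and survival regulators, GADD45G fell by 1.00 on the log2 scale (adjusted p = 0.0146) while GADD45A (0.66) and BCL2L11, the BH3 protein BIM (0.36), rose. IER3, an early-response survival gene, rose from 13.21, 12.30, 13.17 and 13.87 to 14.68, 13.69, 14.37 and 14.02, the groups overlapping (log2 1.05 ± 0.29, adjusted p = 0.0483). KLF2, a transcription factor of quiescence, fell by 1.00 on the log2 scale (adjusted p = 0.0368). IER3 and KLF2 were the 2 calls among 26 immediate early genes (7.69%, against 5.01% of all genes). RAB15, a small GTPase of endosomal recycling, rose from 9.64 ± 0.30 to 11.09 ± 0.18 (SD, n = 4; log2 1.45, adjusted p = 0.00537).

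Proliferation and respiration showed no called gene. Of all genes 5.01% were called, and 3049 of 18132 were at an unadjusted p of 0.05 (limma). Of 37 DNA replication genes 0 were called by limma, with 4 at an unadjusted p of 0.05. Of the 37, 28 had a negative change, with a median of -0.05. The most abundant, E2F1 and RRM1, differed by 0.12 and -0.35. Of 32 mitosis genes 0 were called, 1 was at an unadjusted p of 0.05, 24 had a negative change and the median was -0.06. CENPA was at 12.34 in control and 12.43 with CM, and PRC1 at 11.82 and 11.69. Of 71 genes of oxidative phosphorylation 0 were called, 12 were at an unadjusted p of 0.05, 44 had a positive change and the median was 0.05. ATP5B was at 14.86 and 14.78, and ATP5G3 at 14.70 and 14.54. Under the other settings between 0 and 4 genes of each of these lists were called in a direction. Of 35 MAP kinase cascade genes 1 was called (2.86%, against 5.01% of all genes), SPRY2, which was at background on all 8 arrays. Of 31 axon guidance genes EFNA1 alone was called (log2 0.38), a share of 3.23% against 5.01% of all genes. Its groups overlapped, and only 2 of its control arrays were above background.

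Over the 43 lists, which hold 1141 different genes, 99 genes (8.68%) were called, 56 higher and 43 lower, against 5.01% of all genes tested. Among the 7959 genes above background on every array of a group the share was 10.8%, and not all listed genes are among these. How firmly single calls held differed. Of the 115 called genes named by rule or chosen after their values were seen, 36 passed under all 21 alternatives, 13 rises and 23 falls. The rises were ICAM1, CCL5, CX3CL1, PDLIM4, ARHGEF4, ADAMTS4, GCH1, RAB15, ARRDC4, TXNIP, CD40, ENO2 and BLVRB. The falls were AVPR1A, EDN1, NEDD9, FHL2, NUAK1, FZD2, TNFRSF12A, TMEM119, GPR176, MRVI1, IRAK2, LMOD1, WISP2, SRF, PES1, TGFB1I1, FADS3, TIMP3, ID4, SMAD2, PMEPA1, HSP105 and SLC30A1. Leaving out control array 3 ended 50 of the 115 calls, control array 2 or treated array 4 ended 45 each, control array 4 ended 12, and each of the other 4 arrays ended 23 to 34. Leaving out both arrays numbered 2, chosen after seeing the data, ended 62.

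**Figure D5:**
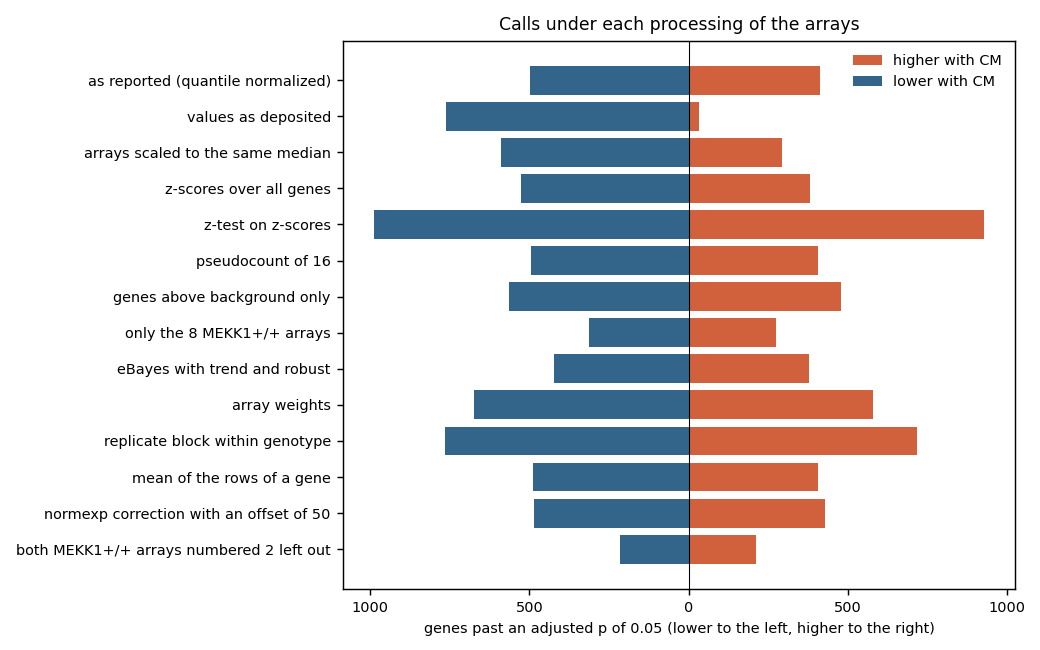
Number of genes past an adjusted p of 0.05 (x axis, lower to the left and higher to the right of 0) under each processing of the arrays, leaving single arrays out not shown. The balance of rises and falls is near even in most settings, and with the values as deposited it is 32 against 763.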

How the data were processed

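The deposited values are intensity values on a linear scale, 1 per gene symbol and array, which the authors received already normalized from a core facility. The method, the background treatment and how probes were combined are not given in the sources used here. Here they were log2 transformed and quantile normalized between arrays, which assumes that most genes do not change. All 16 arrays were fitted together as 4 groups in limma 3.58.1 (lmFit, then eBayes; R 4.3.3; 12 residual degrees of freedom), and p-values were Benjamini-Hochberg adjusted over all 18132 genes. Single genes also had 2-sided exact permutation tests of 4 arrays against 4. Precision is limited by 4 arrays per group. The steps were tested on simulated data. Names were matched to RefSeq (GRCm38.p6): 14305 by symbol, 2904 by older symbol, 923 not to 1 gene.

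Named genes are the 10 largest rises and falls that are called, above background and without overlap, up to 5 called genes per list and direction, the 2 most abundant genes of a list with none, and CCL5, MAP3K1, FGFR1, NFKB1 and RELA. Further named genes were chosen after their values were seen. Members and lists were chosen with earlier results of these data known. "At least" folds are against the background level where the other group lay below it. Alternatives covered scaling, z-scores, a pseudocount, background filters, normexp, the arrays fitted, moderation, weights, the replicate block, rows sharing a gene, and each array left out. Not every called gene that this rule gives is reported here.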

Additional observations from a re-analysis of the deposited data

Results flagged for a closer look

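In 13 of 306 groups of 4 arrays, over 153 named genes, the highest or lowest array stood apart from the other 3 by Dixon's criterion, which chance alone flags in about 1 group in 20. Control array 4 was the one apart in 7 of the genes: ARRDC3 (7.75), CSF2 (9.44), FGFRL1 (8.52) and NUAK1 (11.97) were highest there, and FDPS (12.88), FHL2 (10.66) and KLF2 (9.61) lowest. For CSF2, FDPS, FHL2, KLF2, FGFRL1 and ARRDC3 this array was the control nearest to the CM arrays, and for NUAK1 the farthest. Control array 1 was highest for SLC30A1 (8.56) and TAGLN (11.92). Among the CM arrays, array 1 was highest for LMOD1 (7.98), PMEPA1 (7.72) and TGFB1I1 (10.93), and array 2 for BCL3 (9.93), a nuclear IkappaB protein whose change of 0.66 did not pass the threshold.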

How the results depend on the processing

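The directions of 110 of the 115 called genes, named by rule or chosen after their values were seen, held under all 21 alternatives. With the values as deposited 5 turned: MLXIPL (-0.11), SLC31A1 (-0.03), SPRY2 (-0.04), TGIF1 (-0.07) and VCAN (-0.02); on that scale 32 genes were called higher and 763 lower. The 909 calls (411 higher, 498 lower) became 1916 (928 and 988) in the z-test on z-scores, the methods' test, and 588 (274 and 314) in a fit of only the 8 MEKK1+/+ arrays. Leaving out 1 array gave 506 to 987 calls, 230 to 452 higher and 276 to 535 lower, with 506 without control array 3, 541 without control array 2 and 552 without treated array 4. With both arrays numbered 2 left out (chosen after seeing the data) 428 were called, 212 higher and 216 lower. The difference in response between genotypes had 0 to 1 called gene, the 1 without treated array 1. The cause was not tested in any of these. With the replicate number as a block, 1481 genes were called, 715 higher and 766 lower. Same-numbered arrays correlated at -0.038, 0.485, 0.12 and 0.576 in their deviations from the group means. Control arrays 2, 3 and 4 correlated best with the treated array of their own number, and control array 1 with treated array 3 (0.357). In MEKK1-/- cells the same-numbered correlations were 0.505, 0.403, 0.219 and 0.251. Control arrays 3 and 4 there correlated best with treated arrays 4 and 3 (0.28 and 0.541). The labels do not say whether the numbers pair the samples, so pairing is not settled and the unblocked fit was kept. Under the block LCN2, IL1B, C3, NFKBIA and TNIP1 passed (adjusted p = 0.00391, 0.0271, 0.0465, 0.044 and 0.00213) and IL6, CXCL1, SAA3 and NFKBIZ did not (0.0966, 0.187, 0.341 and 0.0621). MMP3, MMP13, NOL5A, GNL3, ARRDC3 and BCL3 also passed under it (0.00211, 0.00695, 0.00124, 0.00233, 0.0114 and 0.0275). Other settings stayed within 1.5 times the counts. A gene near background has a compressed change: 20 called genes were at or below background on all 8 arrays.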
